A study of Mus musculus with 12 samples.

Results

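Small leucine-rich proteoglycans are secreted matrix proteins with a curved leucine-rich core that carries chondroitin, dermatan or keratan sulfate chains, or none. The 10 genes described here are Dcn (decorin), Bgn (biglycan), Aspn (asporin), Lum (lumican), Fmod (fibromodulin), Prelp, Kera (keratocan), Omd (osteomodulin), Ogn (osteoglycin) and Podn (podocan). They were found by symbol among the 24421 entries of the deposited count table, and all 10 had enough counts to be tested. The mRNA was measured in the tibialis anterior, a muscle of the front of the lower leg, in 12 libraries from male mice aged 4 months. The WT group was 6 libraries of C57Bl/6 mice. The other group was 6 libraries of mdx/mTR mice, which carry the mdx allele of the dystrophin gene Dmd and, by their name, an altered telomerase RNA gene. For this second allele the labels give neither zygosity nor generation, and the count table holds too few Terc counts to check it. RNA came from the muscle and not from sorted cells, so every value is a mean over fibres, connective tissue, vessels, nerves and blood cells.

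In muscle these proteoglycans lie in the sheets of connective tissue around fibres and bundles and in the tendon. Decorin, biglycan, lumican and fibromodulin bind fibrillar collagen and affect the width and spacing of its fibrils. Decorin and biglycan also bind growth factors such as TGF-beta, and soluble biglycan is a ligand of the toll-like receptors TLR2 and TLR4. Fibroblasts, fibro-adipogenic progenitors and tendon cells are the usual sources of their mRNA. Class I (Dcn, Bgn and Aspn), class II (Lum, Fmod, Prelp, Kera and Omd), class III (Ogn) and class V (Podn) differ in the protein's amino-terminal region and in the attached chains.

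Of the 10 genes, 7 had higher mRNA in mdx/mTR, 0 were lower and 3 did not pass the test. The rise was largest for Lum, at 2.61-fold, and Bgn, at 2.35-fold. It was 1.51-fold for Dcn, the most abundant of them, and Kera had nearly the same mean in both groups. The test was edgeR's quasi-likelihood test on counts, with Benjamini-Hochberg adjustment over the 13937 genes tested and a threshold of 0.05. By the same rule 25.0% of all tested genes were higher and 23.4% were lower, so a single call is common in these data. Over the 10 genes the median log2 fold change was 0.475, and over all genes tested it was 0.0137. In 4 of the 10 (Dcn, Bgn, Lum and Prelp) all 6 mdx/mTR libraries lay above all 6 WT libraries, a pattern found in 12.6% of tested genes. In bulk tissue, more cells of a type and more RNA per cell cannot be told apart.

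Normalised levels are given in CPM, the usual count unit corrected for library size, here with sizes adjusted by the trimmed mean of M-values (TMM). Library totals ran from 35136327 to 60330410 counts, and the counts of the 10 genes ran from 25 for Omd to 32198 for Dcn in a library. TMM factors were 0.929 to 0.971 in WT and 0.988 to 1.16 in mdx/mTR. Under TMM 3479 genes were higher and 3257 lower, and under plain library totals 5596 and 1560, with the median over genes at 0.169 in place of 0.0137. Values here are relative to TMM. Dmd was 228 to 244 CPM in WT and 35.2 to 56.4 CPM in mdx/mTR, so each library matched its label as to the mdx allele. The fibre genes Acta1, Ckm, Myh4, Mylpf and Tnnt3 summed to between 95528 and 147502 CPM in a library, so the markers of the labelled tissue were present. The labels do not state that each library came from a separate mouse, so p-values measure the spread between these samples, which may be technical.

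**Figure D1:**
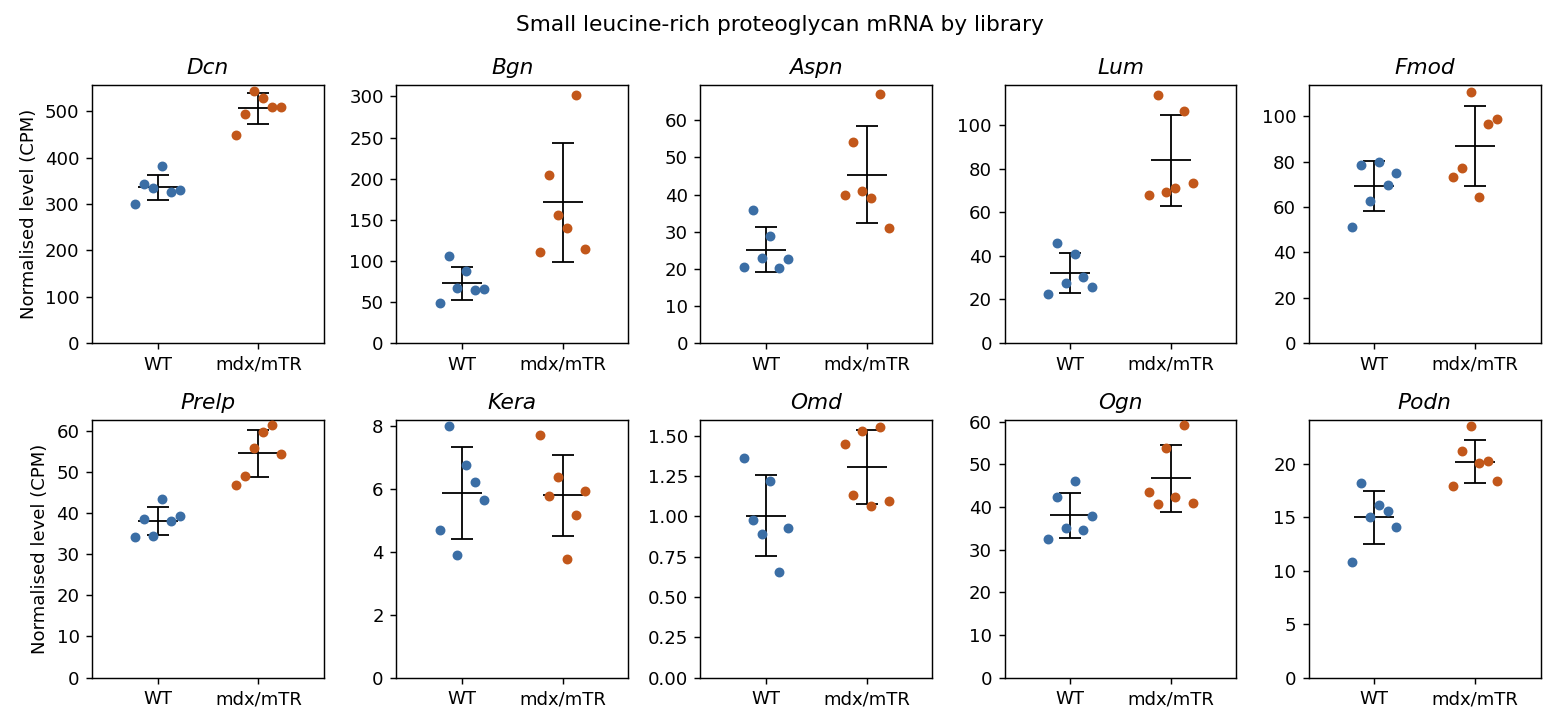
Normalised level of each gene in CPM (vertical axes, each starting at 0) in the 6 WT and 6 mdx/mTR libraries. Points are libraries in the order of their replicate numbers, and bars are the mean and SD. The groups do not overlap for Dcn, Bgn, Lum and Prelp, while Kera covers the same range in both.

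Among the class I genes, Dcn had the highest level and the smallest relative spread. Its level in WT was 299 CPM at the lowest, 333 CPM at the median and 383 CPM at the highest. In mdx/mTR it was 449, 509 and 544 CPM, so that the lowest mdx/mTR library was above the highest WT library. The means were 336 ± 27.4 and 506 ± 32.9 CPM (SD, n = 6 each), with a log2 fold change of 0.59 ± 0.06 (SE; adjusted p 1.02e-05 in edgeR). The coefficient of variation of Dcn, SD over mean, was 8.16% in WT and 6.50% in mdx/mTR.

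Bgn, whose core protein resembles decorin but usually carries an additional chain, varied far more between libraries. The lowest, median and highest WT libraries held 48.4, 65.9 and 105 CPM. The mdx/mTR libraries held 110, 148 and 301 CPM, without overlap, although the lowest of them was close to the highest in WT. The group means were 72.8 ± 20.2 and 171 ± 72.4 CPM (log2 change 1.23 ± 0.25 SE, adjusted p 0.00108 in edgeR). Coefficients of variation were 27.7% and 42.4%. The top of the range came from mdx/mTR replicate 5 at 301 CPM and replicate 2 at 204 CPM. Without both, a setting chosen after their values were seen, the log2 fold change of Bgn was 0.83 (adjusted p 0.0022). The same setting gave 0.59 for Dcn and 1.13 for Lum, and all 3 passed the threshold.

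Aspn encodes asporin, a class I protein that lacks a glycosaminoglycan chain and binds collagen and TGF-beta. It ran from 20.1 through a median of 22.7 to 35.8 CPM in WT, and from 30.9 through 40.4 to 67.1 CPM in mdx/mTR. The groups overlapped through 1 library on each side: 5 of 6 mdx/mTR libraries exceeded every WT library, and WT replicate 2 exceeded mdx/mTR replicate 6. The means were 25.1 ± 6.09 and 45.4 ± 13 CPM, with a log2 fold change of 0.85 ± 0.18 (SE; adjusted p 0.00187 in edgeR). Like Bgn, Aspn was highest in WT replicate 2 among WT and in mdx/mTR replicate 5 among mdx/mTR, and without mdx/mTR replicates 2 and 5 its log2 fold change was 0.58 (adjusted p 0.0068).

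The class II genes did not move as a unit. Lum, the keratan sulfate proteoglycan of cornea and many other connective tissues, had the largest change of the 10, and 4.20% of all tested genes had a log2 fold change at least as large. Its WT levels were 22.4 CPM at the lowest, 28.8 CPM at the median and 46.1 CPM at the highest. The mdx/mTR levels were 68.1, 72.4 and 114 CPM, so even the lowest was well above WT. Means were 32.2 ± 9.34 and 83.9 ± 20.8 CPM (log2 change 1.38 ± 0.19 SE, adjusted p 6.40e-05 in edgeR). Prelp, a heparin-binding member that links basement membrane to collagen, ranged from 34.2 to 43.4 CPM in WT (median 38.3) and from 46.9 to 61.3 CPM in mdx/mTR (median 55.1). All 6 mdx/mTR libraries were above WT, with a log2 fold change of 0.52 ± 0.08 (SE; adjusted p 1.02e-04 in edgeR).

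Fmod, which shares a collagen-binding region with lumican, lay near the threshold. In WT it ran from 51.0 to 79.8 CPM with a median of 72.3 CPM, and in mdx/mTR from 64.4 to 111 CPM with a median of 87.0 CPM. The ranges overlapped, and 3 of 6 mdx/mTR libraries exceeded every WT library. The log2 fold change was 0.32 ± 0.14 (SE; 95% interval 0.03 to 0.62, adjusted p 0.0629 in edgeR). The authors' deposited table gives 0.30 with an adjusted p of 0.0493, and edgeR passed Fmod without mdx/mTR replicate 1 (adjusted p 0.0448) or replicate 4 (0.0215). The call of Fmod thus depended on the setting.

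Kera and Omd, known from cornea and bone respectively, had the lowest levels. Kera ran from 3.89 to 7.98 CPM in WT and from 3.78 to 7.70 CPM in mdx/mTR, with 0 mdx/mTR libraries above the WT range. Its log2 fold change was -0.02 ± 0.18 (SE; 95% interval -0.40 to 0.37, adjusted p 0.945 in edgeR), and its sign changed in 7 of 21 alternative settings. A rise as large as that of Dcn, 0.59, lies outside this interval, and a rise as large as that of Ogn, 0.29, lies inside it. Omd ran from 0.653 to 1.36 CPM in WT and from 1.06 to 1.56 CPM in mdx/mTR, far above the 0.0460 to 0.0837 CPM that 3 counts represent. With 25 to 83 counts per library its log2 fold change was 0.37 ± 0.19 (SE; 95% interval -0.03 to 0.77, adjusted p 0.115 in edgeR).

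Ogn and Podn changed little but passed the test. Ogn, the class III member also called mimecan, ran from 32.4 through a median of 36.5 to 46.2 CPM in WT, and from 40.7 through 42.9 to 59.1 CPM in mdx/mTR. The groups overlapped widely, with 2 of 6 mdx/mTR libraries above the WT range, and the log2 fold change was 0.29 ± 0.11 (SE; adjusted p 0.0400 in edgeR). The call of Ogn was lost when WT replicate 1, 3, 5 or 6 or mdx/mTR replicate 3 or 5 was left out (adjusted p 0.0651 to 0.0910). Podn, a collagen-binding protein best known from smooth muscle, ran from 10.8 through 15.3 to 18.2 CPM in WT and from 17.9 through 20.1 to 23.5 CPM in mdx/mTR. All mdx/mTR libraries but 1 exceeded the WT range, and its log2 fold change was 0.43 ± 0.10 (SE; adjusted p 0.00413 in edgeR).

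**Figure D2:**
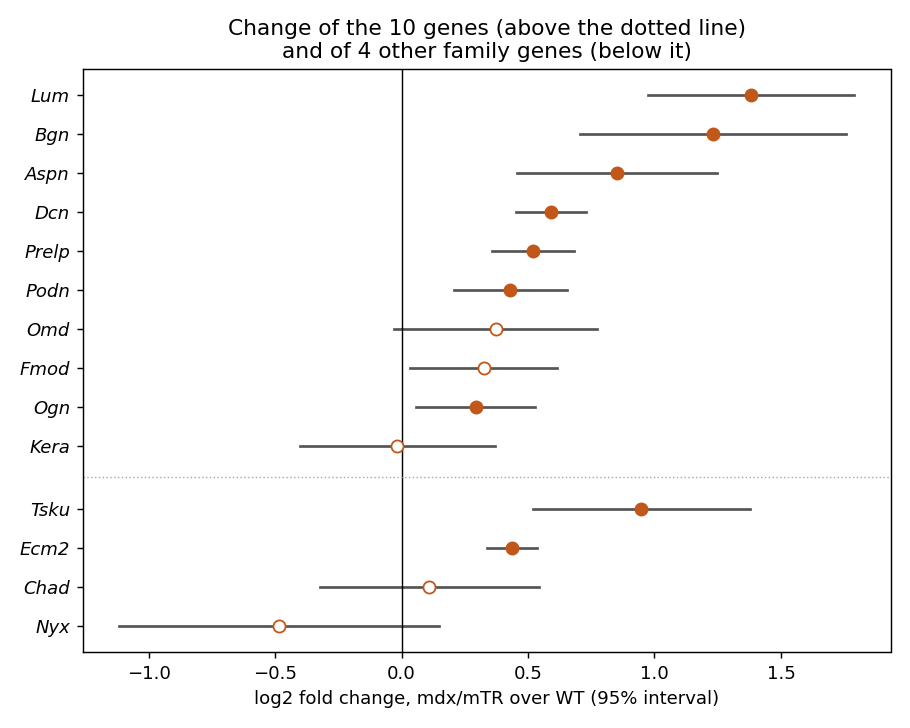
Log2 fold change between mdx/mTR and WT (horizontal axis, above 0 where mdx/mTR is higher) with its 95% interval from edgeR; filled points have an adjusted p below 0.05 and open points do not. Above the dotted line the 10 genes run from Lum at 1.38 to Kera at -0.02, and below it are the 4 tested genes among 7 further family members.

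A further 7 genes of the same protein family were listed for comparison, of which 4 were tested, 2 were higher and 0 lower. Over all tested genes 25.0% were higher. Ecm2, which lies beside Aspn in the genome, had 21.6 to 23.8 CPM in WT and 27.9 to 32.5 CPM in mdx/mTR. These groups did not overlap, and the log2 fold change was 0.44 ± 0.05 (SE; adjusted p 8.97e-06 in edgeR). Tsku (tsukushi, a secreted inhibitor of growth factors) averaged 1.10 and 2.13 CPM (0.95 ± 0.20 SE, adjusted p 0.00162 in edgeR). Chad (chondroadherin, a cartilage matrix protein) had a log2 fold change of 0.11 (adjusted p 0.679) and Nyx (nyctalopin, of the retina) of -0.48 (adjusted p 0.191). Epyc, Optc and Podnl1, with at most 3, 6 and 40 counts in a library, were not tested.

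Levels of different genes were compared per length, as CPM per kilobase of the longest coding transcript. Dcn came first in both groups, with 191 ± 15.6 CPM per kilobase in WT and 288 ± 18.7 in mdx/mTR, and made up 63.8% and 60.0% of the summed level of the 10 genes. In WT it was followed by Bgn (30.1 CPM per kilobase), Fmod (22.2), Ogn (14.8), Lum (13.1), Aspn (10.8), Prelp (10.5), Podn (4.72), Kera (2.57) and Omd (0.447). Neighbours whose ranges were separate in WT were Dcn and Bgn, Prelp and Podn, and Kera and Omd. Aspn and Prelp were not ordered in WT, since Aspn was the higher in 3 of 6 libraries. The order of Bgn and Fmod also depended on the length used: with the median coding transcript length, Fmod was 38.0 and Bgn 36.5 CPM per kilobase in WT.

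In mdx/mTR the order was Dcn, Bgn (70.7 CPM per kilobase), Lum (34.3), Fmod (27.9), Aspn (19.5), Ogn (18.2), Prelp (15.1), Podn (6.37), Kera (2.54) and Omd (0.580). Lum stood at rank 5 in WT and at rank 3 in mdx/mTR, while Ogn went from rank 4 to rank 6. Lum exceeded Fmod in 4 of 6 mdx/mTR libraries, as Aspn did Ogn, so neither pair of neighbours was separated. With the median coding transcript length Fmod, at 47.6 CPM per kilobase, came before Lum, which was then at rank 4 in mdx/mTR. The share of Lum in the summed level was 3.61% to 5.62% in WT and 5.64% to 9.33% in mdx/mTR, while that of Ogn was 4.71% to 5.19% and 3.18% to 4.17%. Neither pair of ranges overlapped. The summed level itself was 300.5 ± 34.9 CPM per kilobase in WT and 483 ± 53.6 in mdx/mTR. The lowest share of Dcn in an mdx/mTR library was 51.1%, or 47.0% with the median coding transcript length.

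Ratios of counts between genes of the same library do not depend on library scaling, and 10 were tested with a two-sided exact permutation test over all regroupings, adjusted over the 10. The smallest p this design allows is 0.00216. Relative to Lum, its class II relatives Fmod and Prelp were lower in mdx/mTR. The Fmod to Lum ratio was 1.70 to 2.90 in WT and 0.678 to 1.60 in mdx/mTR, without overlap. Its mean log2 difference was -1.08 (95% interval -1.54 to -0.60, exact permutation p 0.00216, adjusted p 0.0108). The Prelp to Lum ratio was 0.835 to 1.53 in WT and 0.430 to 0.834 in mdx/mTR, so the groups touched but did not overlap (log2 difference -0.88, exact permutation p 0.00216, adjusted p 0.0108). Both differences passed the threshold whichever library was left out.

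Relative to Dcn, Lum and Bgn were higher and Ogn was lower. The Lum to Dcn ratio was 0.0749 to 0.134 in WT and 0.128 to 0.231 in mdx/mTR (log2 difference 0.80, exact permutation p 0.00433, adjusted p 0.0108), with overlap only between WT replicate 2 and mdx/mTR replicate 3. For Bgn to Dcn the ranges were 0.162 to 0.306 and 0.223 to 0.592, and the log2 difference of 0.59 was at the threshold (exact permutation p 0.0346, adjusted p 0.0495). That call was lost in 9 of 12 fits that left out 1 library (all but those without WT replicate 2 or mdx/mTR replicate 4 or 6), the value being 0.41 (adjusted p 0.0928) without mdx/mTR replicate 5. For Ogn to Dcn the ratio was 0.105 to 0.123 in WT and 0.0798 to 0.116 in mdx/mTR (log2 difference -0.30, exact permutation p 0.0173, adjusted p 0.0346), and the call was lost without WT replicate 4 or 6 or mdx/mTR replicate 2. Aspn to Dcn was not called (0.25, 95% interval -0.19 to 0.69, exact permutation p 0.238, adjusted p 0.238).

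**Figure D3:**
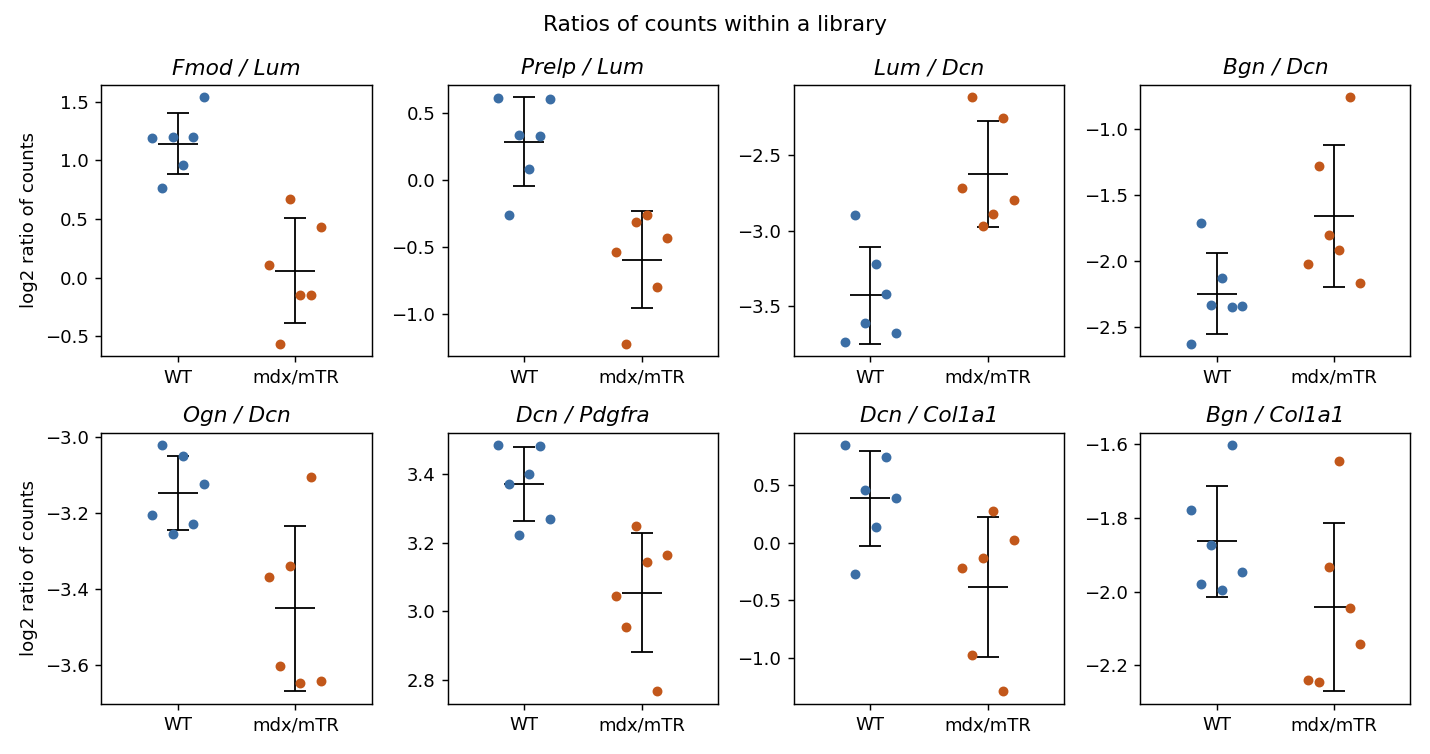
Log2 ratio of counts of gene pairs within a library (vertical axes, which do not start at 0) for the 6 WT and 6 mdx/mTR libraries, with mean and SD. Fmod and Prelp over Lum separate the groups, and Bgn over Col1a1 does not.

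Dcn and Bgn were also set beside genes of their surroundings. Col1a1, a chain of the collagen that decorin coats, went from 270 to 712 CPM (log2 change 1.40 ± 0.28 SE, adjusted p 0.00117 in edgeR). The Dcn to Col1a1 ratio was 0.828 to 1.80 in WT and 0.409 to 1.21 in mdx/mTR (log2 difference -0.77, exact permutation p 0.0281, adjusted p 0.0469), a call lost in the same 9 of 12 fits as that of Bgn to Dcn, the value being -0.59 without mdx/mTR replicate 5. The Bgn to Col1a1 ratio was 0.251 to 0.329 and 0.211 to 0.320, with a log2 difference of -0.18 (95% interval -0.41 to 0.07, exact permutation p 0.139, adjusted p 0.173). Without mdx/mTR replicate 4 that difference was -0.26 with an adjusted p of 0.0289. The interval holds both no difference and a fall of Bgn relative to Col1a1.

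Pdgfra, the receptor gene that marks fibroblasts and fibro-adipogenic progenitors, was 26.7 to 36.3 CPM in WT and 54.5 to 74.8 CPM in mdx/mTR. Its log2 fold change of 0.91 ± 0.09 (SE; adjusted p 5.24e-06 in edgeR) exceeded that of Dcn. The Dcn to Pdgfra ratio was 9.33 to 11.2 in WT and 6.81 to 9.50 in mdx/mTR (log2 difference -0.32, 95% interval -0.51 to -0.15, exact permutation p 0.00433, adjusted p 0.0108), overlapping only through mdx/mTR replicate 3. For Bgn to Pdgfra the interval spanned 0 (0.27, 95% interval -0.18 to 0.74, exact permutation p 0.214, adjusted p 0.238). Of the further fibroblast and fibro-adipogenic markers, Dpt (log2 fold change 0.94) and Col15a1 (0.76) rose by more than Dcn, and Lama2 (0.60) by about as much. Cd248 (0.22), Pi16 (-0.04) and Dpp4 (-0.07) did not pass. Pdgfra was thus 1 marker near the top of its list, and ratios of Dcn to the rest were not tested.

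Markers of other cells were measured beside these genes. Over all tested genes 25.0% were higher and 23.4% lower, so a few calls in a short list cannot show that a cell type changed. Of 7 fibroblast and fibro-adipogenic markers, 4 were higher, 0 lower, and the summed level was 217 to 335 CPM in WT and 356 to 561 CPM in mdx/mTR. Of 6 tendon markers, 5 were higher, among them Tnmd (0.86 ± 0.20 SE, adjusted p 0.00267 in edgeR) and Scx (0.62 ± 0.23 SE, adjusted p 0.0356, a call lost without any of 8 single libraries). The sums over all 6 were 149 to 229 CPM in WT and 234 to 457 CPM in mdx/mTR. The largest parts came from Thbs4 (means 97.5 and 217 CPM in WT and mdx/mTR) and Egr1 (65.2 and 54.3 CPM, not called). Scx averaged only 3.95 and 6.08 CPM and Tnmd 4.16 and 7.56 CPM, so the sums mainly follow Thbs4 and Egr1. All 5 macrophage markers were higher, with sums of 37.1 to 61.4 and 83.2 to 262 CPM. Endothelial markers had 0 of 4 higher and 2 lower, smooth muscle and pericyte markers 1 higher and 2 lower, and Schwann cell markers 0 higher and 3 lower. Adipocyte and cartilage or bone markers had 0 calls of 3 and of 2 tested. Muscle fibre markers had 1 higher and 1 lower of 5, as did satellite cell markers of 3. No marker was at 0 in every library, and the part that these cells have in the levels of the 10 genes was not tested.

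Within a group, the genes varied together between libraries to different degrees. Deviations were taken from the group mean of log2(CPM + 0.5). In WT replicate 4 all 10 genes lay above their group mean, in WT replicate 2 and mdx/mTR replicate 5 it was 9 of 10, and in WT replicates 1 and 3 only 1 of 10. The mean deviation was highest in WT replicate 2 (0.28) and mdx/mTR replicate 5 (0.27), and lowest in WT replicate 1 (-0.26). The 9 collagen genes summed to 5879 and 6286 CPM in mdx/mTR replicates 2 and 5, and to between 2796 and 3588 CPM in the remaining 4 of that group. Macrophage markers were also highest in mdx/mTR replicate 5, at 262 CPM. In mdx/mTR replicate 5 the deviation was 0.91 for Bgn, 0.61 for Aspn and 0.38 for Lum, and 0.01 for Dcn. The Pearson r of a gene's deviation with the mean of the other 9 over the 12 libraries, which share their scaling, was 0.839 for Ogn, 0.832 for Bgn, 0.80 for Aspn and 0.788 for Lum. It was 0.557 for Dcn, 0.351 for Kera and 0.155 for Omd. The part of collagen or macrophage content in these deviations was not tested.

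**Figure D4:**
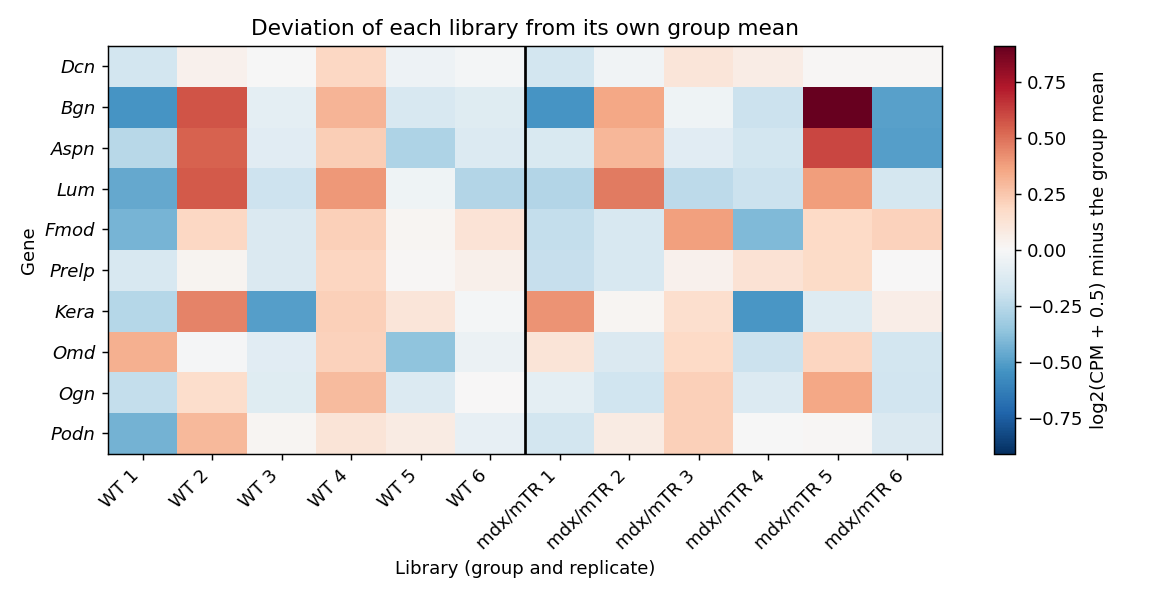
Deviation of each gene (rows) in each library (columns) from the mean of its own group, in log2(CPM + 0.5), with red above and blue below the mean. Bgn and Aspn are darkest in mdx/mTR replicate 5, and WT replicate 2 and WT replicate 4 are mostly red.

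Genes outside the family were ranked by how their within-group deviations followed the mean deviation of the 10 genes over the 12 libraries. The closest were Arap1 (Pearson r 0.957, Spearman rho 0.937), Pros1 (0.948 and 0.951), Impdh1 (0.943 and 0.797), Prcp (0.942 and 0.867) and Gltp (0.942 and 0.909). These are descriptions over 12 libraries that share their scaling, and 2 of the 5 remained among the closest 5 by Spearman rho. All 5 were higher in mdx/mTR, by log2 fold changes from 0.29 to 0.76. Without mdx/mTR replicates 2 and 5 that of Prcp was 0.47 and did not pass (adjusted p 0.0997).

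Decorin, biglycan and their relatives are finished by enzymes that build and sulfate the chains. Beside these lists of enzymes, 25.0% of all tested genes were higher and 23.4% lower. Of 7 enzymes of the linker between core protein and chain, 1 was higher and 3 lower. Without mdx/mTR replicate 1 or without WT replicate 2 the number higher was 2, with B3galt6 (adjusted p 0.0106) in the first case and Xylt2 (adjusted p 0.0474) in the second. Fam20b, the xylose kinase of the linker, had 93.3 to 135 CPM in WT and 64.7 to 75.5 CPM in mdx/mTR, without overlap (log2 change -0.72 ± 0.08 SE, adjusted p 9.19e-06 in edgeR). Pxylp1, the phosphatase that acts opposite to it, had a log2 fold change of 0.84 ± 0.18 (SE; adjusted p 0.00145 in edgeR), from 1.08 to 1.94 CPM. Of 15 tested enzymes of chondroitin and dermatan sulfate, 9 were higher and 1 lower, with a median of 0.459. Chpf, which lengthens chondroitin chains, averaged 7.83 and 14.8 CPM (0.91 ± 0.13 SE, adjusted p 1.09e-04 in edgeR). Dse, the epimerase that turns chondroitin into dermatan sulfate, averaged 5.44 and 11.5 CPM (1.08 ± 0.19 SE, adjusted p 3.85e-04 in edgeR).

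Of 5 tested keratan sulfate enzymes, which serve lumican and fibromodulin, 3 were higher and 0 lower, and without mdx/mTR replicates 2 and 5 only 1 was higher. They included B3gnt2 (0.80 ± 0.11 SE, adjusted p 5.92e-05 in edgeR) and the sulfotransferase gene Chst1 (0.50 ± 0.14 SE, adjusted p 0.0103). Without those libraries Chst1 had 0.33 (adjusted p 0.0554) and B4galt1, the galactosyltransferase gene called with all libraries, had 0.24 (adjusted p 0.109). The call of B4galt1 (0.29, adjusted p 0.0350 with all libraries) was also lost when WT replicate 1, 3, 5 or 6 or mdx/mTR replicate 2, 3 or 6 was left out (adjusted p 0.0669 to 0.0792). Tyrosine sulfation modifies the amino-terminal tail of several class II proteins. Of its enzymes, Tpst1 was higher (0.42 ± 0.12 SE, adjusted p 0.00852 in edgeR) and Tpst2 did not pass (-0.02, adjusted p 0.768).

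Among 18 genes of ligands and receptors that these proteoglycans bind or signal through, 9 were higher and 2 lower. Over all tested genes the shares were 25.0% and 23.4%. Tlr4, a receptor of soluble biglycan, had 3.45 to 5.07 CPM in WT and 7.58 to 9.93 CPM in mdx/mTR, without overlap (1.04 ± 0.11 SE, adjusted p 8.56e-06 in edgeR). Tgfb1, the ligand that decorin and biglycan bind, averaged 6.94 and 14 CPM (1.01 ± 0.17 SE, adjusted p 3.85e-04 in edgeR). Mstn, the gene of the muscle growth inhibitor myostatin, which decorin can bind, had 35.0 to 49.4 CPM in WT and 7.74 to 16.9 CPM in mdx/mTR, lower without overlap (-1.92 ± 0.16 SE, adjusted p 1.13e-06 in edgeR).

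The collagens around which these proteins sit had 8 of 9 genes higher and 0 lower, with a median log2 fold change of 1.23, against 0.475 for the 10 proteoglycan genes. Col3a1 (1.67 ± 0.25 SE, adjusted p 1.47e-04 in edgeR) and Col6a3 (1.31 ± 0.21 SE, adjusted p 2.46e-04 in edgeR) had the smallest p-values of this list. Without mdx/mTR replicates 2 and 5 the log2 fold change was 1.27 for Col3a1, 0.93 for Col6a3 and 0.93 for Col1a1. In that setting 8 collagen genes were still higher. Of 9 tested proteases able to cleave these proteoglycans, 6 were higher and 0 lower with all libraries. Mmp9, a gelatinase named after its values were seen, had 2.69 to 4.72 CPM in WT and a median of 1.08 CPM in mdx/mTR, where replicate 5 stood at 7.09 CPM. Its log2 fold change was -0.78 (adjusted p 0.238), and -1.86 (adjusted p 2.05e-05) without mdx/mTR replicate 5, so that 1 protease was then lower. Adamts5 (1.21 ± 0.11 SE, adjusted p 1.72e-06 in edgeR) and Mmp2 (1.22 ± 0.13 SE, adjusted p 9.19e-06 in edgeR), which degrade decorin and other matrix proteins, had the smallest p-values. Proteoglycans of other families had 7 of 19 higher and 1 lower, where 25.0% of all tested genes were higher and 23.4% lower. Without mdx/mTR replicate 5, 2 of these proteoglycans were lower, the additional gene being Srgn (-0.27, adjusted p 0.0443 in edgeR). Gpc3, a glypican of the cell surface, was lower (-1.26 ± 0.14 SE, adjusted p 1.24e-05 in edgeR) and Sdc2, a syndecan, was higher (0.77 ± 0.12 SE, adjusted p 1.32e-04 in edgeR).

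Several of the genes lie in tandem in the mouse genome (GRCm38, the build called mm10; gene spans from GENCODE M21). On chromosome 10, Dcn (97479609 to 97518143), Lum (97565128 to 97572703) and Kera (97606879 to 97613692) are on the plus strand within a cluster of 202.4 kb that also holds Epyc. Their log2 fold changes were 0.59 for Dcn, 1.38 for Lum and -0.02 for Kera, with 2 of 3 called. On chromosome 13, Aspn (49544443 to 49567565), Omd (49582462 to 49592822) and Ogn (49608046 to 49624501) follow Ecm2 on the plus strand in 119.7 kb, and Aspn and Ogn were called. Among all tested genes 25.0% were higher and 23.4% lower, so calls among so few genes show little about a cluster. Prelp (133910304 to 133921414, minus strand) and Fmod (134037254 to 134048277, plus strand) lie with Optc in 151.1 kb of chromosome 1. Bgn is on chromosome X (73483602 to 73495933, plus strand) and Podn on chromosome 4 (108014791 to 108096445, minus strand).

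The genes next to these clusters, or overlapping them, did not all move with them. Cenpp, which spans the chromosome 13 cluster on the opposite strand, averaged 1.15 and 1.08 CPM (-0.10, adjusted p 0.656 in edgeR). Btg1, 856.7 kb from the chromosome 10 cluster, was higher (0.68), as was Haus7 beside Bgn (0.62), while Nol8 beside Ogn was lower (-0.34). Ippk, Atp2b4, Btg2 and Atp2b3 did not pass, nor did Scp2, whose span overlaps that of Podn in GENCODE M21 without shared exonic bases. Ccer1, 11.2 kb from the chromosome 10 cluster, had 0 counts in every library. Slc1a7, 1.3 kb from Podn, had at most 10 counts in a library and was not tested. Reads could be shared for Prelp, where 9.68% of exonic bases overlap the antisense gene Gm15851. Of its 50-base stretches, 8.58% occur, on either strand, in transcripts of 1 other gene, whose name was not kept. For Omd, 4.77% of such stretches occur in transcripts of 82 other genes. The handling of strand, which bears on Prelp, is not given in the sources used here. Nor is that of reads with several matches, which bears on Omd, and on Prelp only if the 1 gene is not Gm15851. The counts of Prelp and Omd are uncertain to that extent.

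Promoter sequence was read from the RefSeq table of GRCm38.p6, which held 8 of the 10 genes. The 250 bases upstream of the start of Bgn, Aspn, Fmod and Ogn are shown because these genes covered the range from a large change to a small one and their windows overlap no annotated exon. They are chrX:73483351-73483600, chr13:49544193-49544442, chr1:134037004-134037253 and chr13:49607765-49608014, each on the plus strand and written 5′ to 3′. Capitals mark matches, on either strand, to 5 motifs. The TATA box was searched as TATAAA and the AP-1 element as TGANTCA. The SMAD element was searched as CAGAC, the TEAD element as GGAATG and the Sp1 box as GGGCGG.
Bgn: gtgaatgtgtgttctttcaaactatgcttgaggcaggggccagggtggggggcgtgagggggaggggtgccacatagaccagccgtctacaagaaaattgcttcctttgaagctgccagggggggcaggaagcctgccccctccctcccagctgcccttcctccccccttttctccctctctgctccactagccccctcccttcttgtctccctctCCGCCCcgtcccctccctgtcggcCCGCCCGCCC
Aspn: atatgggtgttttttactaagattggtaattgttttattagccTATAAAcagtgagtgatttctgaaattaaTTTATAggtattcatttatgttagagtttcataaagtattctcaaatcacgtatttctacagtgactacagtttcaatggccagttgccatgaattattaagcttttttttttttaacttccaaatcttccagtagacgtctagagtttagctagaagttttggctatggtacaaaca
Fmod: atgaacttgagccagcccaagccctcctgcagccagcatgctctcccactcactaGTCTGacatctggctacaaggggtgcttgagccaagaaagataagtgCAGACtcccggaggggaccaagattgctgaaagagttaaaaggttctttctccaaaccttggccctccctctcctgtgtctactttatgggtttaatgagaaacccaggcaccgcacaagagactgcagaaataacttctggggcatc
Ogn: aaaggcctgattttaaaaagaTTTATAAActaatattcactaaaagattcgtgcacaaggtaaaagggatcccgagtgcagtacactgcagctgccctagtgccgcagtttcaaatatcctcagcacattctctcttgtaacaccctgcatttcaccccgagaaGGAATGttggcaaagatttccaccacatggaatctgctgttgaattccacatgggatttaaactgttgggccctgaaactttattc

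The window of Bgn held 3 matches to GGGCGG, at -34, -10 and -6 from the start, of which the last 2 overlap. Aspn had TATAAA matches at -207 and -178, and Fmod had CAGAC at -195 and -148. Ogn had overlapping TATAAA matches at -229 and -227 and GGAATG at -86. Over the 8 genes searched, TATAAA was found in 2, CAGAC in 2, GGGCGG in 2, GGAATG in 1 and TGANTCA in 0. The window of Kera lay wholly in annotated exons, and that of Prelp held 13 exonic bases. Podn had more than 1 window, and the one at chr4:108031955-108032204 held 136 exonic bases. Such a gene counts once here, while the shares below are per window. Of 32851 RefSeq promoter windows of the same length, 12.4% held TATAAA, 42.2% CAGAC, 32.7% GGGCGG, 12.6% GGAATG and 6.75% TGANTCA. None of the 5 motifs was found in every searched gene that rose. A match describes the sequence and not the binding of a factor.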

How the data were processed

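RNA of tibialis anterior was sequenced in 6 WT and 6 mdx/mTR libraries, grouped and numbered by their titles. The authors deposited whole-number counts per gene symbol, and their own table of mean normalised signal, log2 fold change, test score and p-values, per the file headers. The submitters' processing notes name the build mm10, FastQC, STAR and DESeq2 without versions; the counter, annotation and strand handling are not given in the sources used here. Each of the 12 count columns matched 1 sample.

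Counts were filtered with filterByExpr, scaled by TMM and fitted in edgeR 4.0.16 (R 4.3.3) with group as the only term; p-values were adjusted by Benjamini-Hochberg over 13937 genes at 0.05. The standard error is the log2 fold change over the root of F. Log2(CPM + 0.5) served for deviations. Count ratios were compared by exact permutation (scipy 1.17.1), with intervals from inverting that test. A floor of 3 counts (95% limit for a count of 0) is 0.0460 to 0.0837 CPM; it covers counting error only, as no molecular identifiers were counted. Lengths and spans came from GENCODE M21. The fit was tested on simulated data.

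The 10 genes, the lists and the markers were chosen with earlier results of these data known. Named genes are the 10, the further family members, the 2 smallest p-values of each list, Col1a1, Pdgfra, Scx, Tnmd, Tgfb1, Cenpp, neighbouring genes and the 5 most alike in pattern. Dmd checks the labels as to the mdx allele, and Terc had too few counts to check the telomerase allele. Mmp9, B4galt1, B3galt6, Xylt2, Srgn, Thbs4 and Egr1 were named after their values were seen. Alternatives were 2 filters, 3 scalings, DESeq2 1.42.0, limma-voom (3.58.1), a replicate block and each library left out; leaving out mdx/mTR replicates 2 and 5 together was chosen after seeing the data.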

Additional observations from a re-analysis of the deposited data

Results flagged for a closer look

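In each group of 6 libraries, the gap of the highest or lowest value to its neighbour was divided by the range of the group and compared with Dixon's critical value for 6 samples. This was done for 40 sets of values and 1 went past the limit, where chance alone would give about 2. It was the Aspn to Dcn count ratio in WT: replicate 2 had 0.104 and the other 5 libraries 0.0620 to 0.0752, a gap of 0.688 of the range. Without that library the log2 difference of Aspn to Dcn between the groups was 0.35 (exact permutation test, adjusted p 0.114).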

How the results depend on the processing

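Dcn, Bgn, Aspn, Lum, Prelp and Podn stayed higher with an adjusted p below 0.05 under all 21 alternatives run. Ogn lost its call in 8 of them, the replicate block (adjusted p 0.0692) and the fit without mdx/mTR replicates 2 and 5 (0.0780) included. Fmod gained one in 5, also under upper quartile scaling (0.0426), library totals alone (0.0154) and DESeq2 (0.0465), and Omd in 1, library totals alone (0.0359). The number of the 10 genes called was 9 with library totals alone and 6 to 8 with 1 library left out. Under plain library totals, 5596 genes of the whole table passed as higher and 1560 as lower, and the median log2 fold change over tested genes was 0.169. The cause of the changed calls was not tested.

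With 1 library left out, log2 differences of ratios ran from 0.410 to 0.698 for Bgn to Dcn, from -0.901 to -0.589 for Dcn to Col1a1, from -0.372 to -0.263 for Ogn to Dcn, and from -0.259 to -0.127 for Bgn to Col1a1. Those of Lum to Dcn, Fmod to Lum, Prelp to Lum and Dcn to Pdgfra kept an adjusted p of at most 0.0216.

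For libraries that share a replicate number, deviations from the group means correlated at -0.155 to 0.354 (above 0.1 for 2 of 6), which gives no ground to treat them as pairs. A replicate block on the ratios allows 64 sign changes and no p below 0.0312. After adjustment over the 10 ratios, the block can pass one only where most of them reach that p, so it is a weak test here. Under it no ratio passed: adjusted p was 0.0781 for Bgn to Dcn (0.590), Lum to Dcn (0.804), Fmod to Lum (-1.08) and Prelp to Lum (-0.878), 0.104 for Dcn to Col1a1 (-0.769) and Dcn to Pdgfra (-0.318), and 0.117 for Ogn to Dcn (-0.303). In edgeR the block left 6 of the 10 genes called in place of 7.

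Counts of list members moved by over 1.5 times in 13 of 378 values, among them 11 in place of 7 other proteoglycans higher and 3 in place of 1 linker enzymes higher with library totals alone. The protease Mmp9 was also called lower under limma-voom (-1.43, adjusted p 0.0125) and the replicate block (-1.34, adjusted p 0.0299). Depth limits mainly Omd, Nyx and the untested Epyc, Optc and Podnl1.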

Other observations

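Some genes of the lists are described here that the comparison above counted without naming, and they were chosen after their values were seen. Mmp3, a protease that cleaves decorin, went from 0.814 to 9.73 CPM (log2 change 3.57 ± 0.44 SE, adjusted p 2.57e-05 in edgeR) and Adamts4 from 1.2 to 6.03 CPM (2.33 ± 0.29 SE, adjusted p 3.10e-05). Both changed more than any of the 10 proteoglycan genes. Each was highest in mdx/mTR replicate 5, Mmp3 at 20.7 CPM (mdx/mTR median 7.41) and Adamts4 at 10.5 CPM (median 4.81). Vcan, of the large hyaluronan-binding proteoglycans, went from 6.49 to 19.5 CPM (1.58 ± 0.33 SE, adjusted p 0.00161) and Prg4, the lubricant proteoglycan of joints and tendon sheaths, from 7.06 to 23.3 CPM (1.72 ± 0.33 SE, adjusted p 8.63e-04). In mdx/mTR replicate 5 Vcan stood at 46.8 CPM and Prg4 at 51.6 CPM, the highest of the group, where the medians were 13.4 and 20.1 CPM. The lowest mdx/mTR library for Prg4, at 8.26 CPM, was close to the highest in WT, at 8.05 CPM. Within the fibroblast markers, Dpt (dermatopontin, which binds decorin) was higher (0.94 ± 0.10 SE, adjusted p 6.33e-06), while Pi16 (-0.04, adjusted p 0.846) and Dpp4 (-0.07, adjusted p 0.695), known from fibroblast progenitors, did not pass.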
